A study of Mus musculus with 10 samples.

Results

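The proteasome genes are described here in bulk RNA sequencing of mouse retina. They were taken as every gene of the count table with a symbol made of Psma, Psmb, Psmc or Psmd and a number, leaving out Psmb8, Psmb9 and Psmb10, the exchange subunits of the immunoproteasome. The rule found 34 of 19999 genes: 7 of the core's alpha ring, 7 of its beta ring, 6 ATPases and 3 other subunits of the regulatory particle's base, 8 subunits of its lid, and 3 chaperones that help assemble the base and carry Psmd symbols. The alpha gene Psma8 and the beta gene Psmb11 were not analysed here.

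The retinas came from BALB/c mice, an albino strain. A light-induced damage model and a control group were sequenced in 5 libraries each, with vehicle in each library's name. All libraries have the same batch entry. Light dose, time after exposure, age and sex are not given in the labels, and the libraries of A74, the agent named in the design text, were not analysed here. Nothing in the labels says that replicates are different animals. The p-values therefore rest on the spread among these libraries, which may be technical.

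The proteasome degrades proteins tagged with ubiquitin. Its core particle is a barrel of stacked rings: the outer alpha rings gate the entrance, and the inner beta rings carry the protease sites, which face the central chamber. The regulatory particle caps the barrel; its lid removes ubiquitin from the substrate and the ATPases of its base unfold the substrate and feed it into the core. Photoreceptors make and discard large amounts of protein, and a limited proteasome capacity has been linked to photoreceptor degeneration in mouse models. When proteasome activity falls, the transcription factor NRF1, whose gene is Nfe2l1, is known to raise the subunit genes together through antioxidant response elements in their promoters.

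Promoter windows from 250 bases before to 50 bases after the gene start were available from RefSeq (GRCm38.p6) for 28 of the 34 genes. They were read for the core letters of the antioxidant response element, TGACNNNGC, on both strands. The letters occurred in the windows of 5 of the 28 genes (17.9%), against 14% of all 27025 genes with a window and 12.4% of the 32851 windows, since some genes have several. The 250 bases before the start are shown for the 2 genes that held a match and rose in light damage, Psmb5 (chr14:54617996-54618245, minus strand) and Psmb6 (chr11:70525107-70525356, plus strand). They are written 5′ to 3′ along the gene, with the matched letters in capitals.
Psmb5: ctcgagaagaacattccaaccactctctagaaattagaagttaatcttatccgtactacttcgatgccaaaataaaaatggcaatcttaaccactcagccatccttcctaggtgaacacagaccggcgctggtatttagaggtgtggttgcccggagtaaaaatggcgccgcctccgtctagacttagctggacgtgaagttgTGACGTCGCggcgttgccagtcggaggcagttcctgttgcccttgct
Psmb6: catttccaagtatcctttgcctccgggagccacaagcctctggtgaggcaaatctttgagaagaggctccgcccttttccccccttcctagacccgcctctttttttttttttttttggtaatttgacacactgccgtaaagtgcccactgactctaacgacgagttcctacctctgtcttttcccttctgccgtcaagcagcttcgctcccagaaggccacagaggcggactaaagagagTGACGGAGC
The match began 47 bases before the start in Psmb5 and 9 bases before it in Psmb6. Psmd9 held TGACCCCGC at 31 bases before the start. Psmd12 (GCTGTGTCA) and Psmc6 (GCTAAGTCA) held the letters on the opposite strand, with the matched bases written along the gene. Of the 10 genes with a window that rose, 2 held a match. The CCAAT box letters occurred in 11 of the 28 genes (39.3%, against 41.1% of all genes and 37.4% of windows). TGCGCA is part of the motif of nuclear respiratory factor 1, an unrelated factor that is also abbreviated NRF1. These letters occurred in 5 of the 28 genes (17.9%, against 8.79% of all genes and 7.76% of windows). These counts describe letters in a window and are not measurements of binding.

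All 34 genes were detected well, with no count under 156 in any library, and all were tested. Levels are given as CPM, a gene's reads per unit of library size, scaled between libraries by the trimmed mean of M-values (TMM). A gene was called when its p, adjusted over all 16852 genes tested, was under 0.05. In edgeR's quasi-likelihood test, 11 of these 34 rose in light damage (32.4%, against 5.32% of all genes tested). None fell (against 7.85% of all genes), with 0 lower at an unadjusted p under 0.05 and 0 lower by DESeq2 or limma-voom. Every light damage library lay above every control library for 10 genes (against 4.31% of all genes), and for 0 genes did every light damage library lie below every control (against 5.48%). The differences were small: the log2 fold change was above 0 for 32 of the 34 genes (against 50.3% of all genes tested). Its median was 0.16 and its range -0.05 to 0.29, beside a median of 0.00 over all genes tested. In the core 6 of 14 genes were called, with a median log2 fold change of 0.18, and among the regulatory particle subunits 5 of 17, with a median of 0.15. The difference between the particles was not tested.

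**Figure D1:**
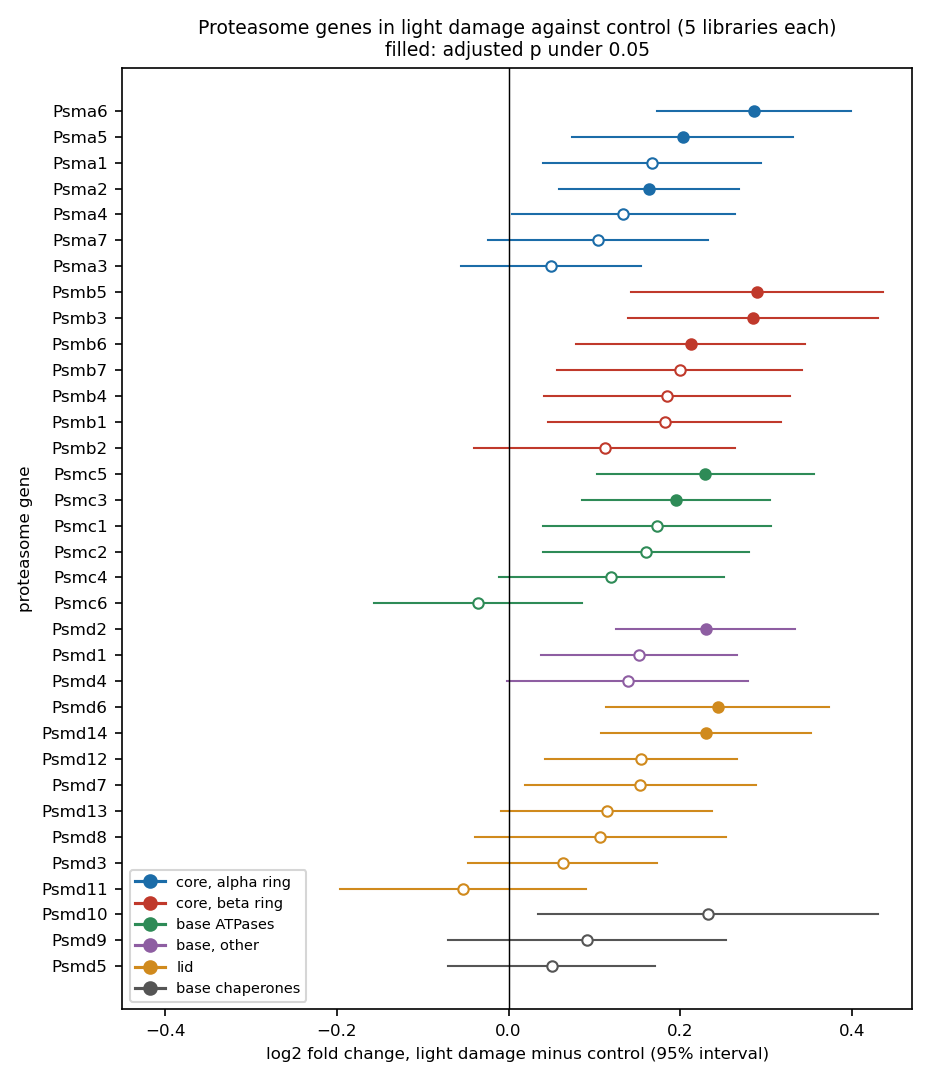
Log2 fold change of each proteasome gene (light damage minus control, 5 libraries each) with its 95% interval, grouped and coloured by part of the particle, filled where the adjusted p was under 0.05. The 11 filled points all lie to the right of 0, and the estimates of Psmc6 and Psmd11 lie to its left.

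Sequencing depth ran from 17900227 to 20337329 counts in light damage libraries and from 14652535 to 20699236 in controls. Light damage replicates 1 and 2 stood apart. Xist had 17174 and 20414 counts there and at most 9 in each other library. There 9 lens markers summed to 7520 and 4015 CPM. The lens sums were 21.4 to 118 CPM in the other light damage libraries and 3.28 to 31.4 CPM in controls. No control had such Xist counts, so a trait that goes with them, such as sex, was unbalanced between the groups. Its part in the differences was not tested. Rod markers were abundant, as the labelled tissue requires, and their sums overlapped between groups (61723 to 86743 CPM in light damage and 66532 to 108093 CPM in controls). Sums for 6 markers of the retinal pigment epithelium, the pigment cell layer behind the photoreceptors, did not overlap (515 to 690 against 407 to 454 CPM). Most of that sum was Rlbp1, which is also on the Müller glia list, and Rpe65 itself averaged 8.03 and 4.25 CPM, with overlap. Of the 5 Müller glia markers 3 rose, and of the 8 microglia markers 1 did (against 5.32% of all genes tested). All 5 and all 8 had log2 fold changes above 0, with medians of 0.38 and 0.66. The microglia markers summed to 59.7 to 129 CPM in light damage and 42.6 to 61.7 CPM in controls. The part of these cell types in the proteasome differences was not tested. In bulk tissue, a change in the number of cells of a type and a change in RNA per cell cannot be told apart.

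In the alpha ring, 3 of 7 genes rose, with a median log2 fold change of 0.16. Psma6 (ENSMUSG00000021024) had the smallest adjusted p of all the proteasome genes. It read 71.3, 67.2, 70.3, 67.9 and 66.3 CPM in light damage replicates 1 to 5 and 60.8, 56.8, 54.5, 55.6 and 53.6 CPM in control replicates 1 to 5. The groups did not overlap, and control replicate 1 was the highest control. The means were 68.6 ± 2.10 and 56.3 ± 2.81 CPM (SD, n = 5 each). On the log2 scale the difference was 0.29 (SE 0.05, edgeR adjusted p = 0.00437). Psma5 (ENSMUSG00000068749) read 40.1, 45.3, 42.4, 44.9 and 44.7 CPM in light damage and 39.6, 36.3, 36.7, 40.0 and 36.1 CPM in controls. Its groups were separated by a narrow gap between light damage replicate 1 and control replicate 4. The log2 fold change was 0.20 (SE 0.06, edgeR adjusted p = 0.0378).

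Psma2 (ENSMUSG00000015671), the remaining alpha gene that rose, read 94.1, 96.7, 97.4, 96.0 and 92.0 CPM in light damage and 85.9, 79.7, 85.2, 88.9 and 85.3 CPM in controls. No libraries overlapped, and control replicate 2 was the lowest. Its log2 fold change was 0.16 (SE 0.05, edgeR adjusted p = 0.0386). The other alpha genes were Psma1 at 0.17 (95% interval 0.04 to 0.29), Psma4 at 0.13 (0.00 to 0.26), Psma7 at 0.10 (-0.02 to 0.23) and Psma3 at 0.05 (-0.06 to 0.15) on the log2 scale. They were not called, and apart from that of Psma3 each interval reaches the size of changes that were.

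In the beta ring 3 of 7 genes rose, with a median log2 fold change of 0.20 and a range from 0.11 to 0.29. Psmb5, Psmb6 and Psmb7 encode the subunits with the protease sites, and 2 of these 3 rose. Psmb5 (ENSMUSG00000022193), with chymotrypsin-like activity, is the main target of the proteasome inhibitor bortezomib. Its 5 light damage libraries read 69.1, 69.5, 73.4, 67.1 and 68.6 CPM and its controls 63.8, 53.1, 51.0, 63.8 and 52.7 CPM. Light damage lay above the controls throughout, and control replicates 1 and 4 came closest. The means of 69.5 ± 2.32 and 56.9 ± 6.37 CPM (SD, n = 5 each) gave a log2 fold change of 0.29 (SE 0.07, edgeR adjusted p = 0.0141).

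Psmb6 (ENSMUSG00000018286), with caspase-like activity, read 111, 108, 112, 115 and 112 CPM in light damage and 102, 87.0, 89.3, 110 and 93.5 CPM in controls. Control replicate 4 lay above light damage replicate 2, the one overlap. Its log2 fold change was 0.21 (SE 0.06, edgeR adjusted p = 0.0369). Psmb7 (ENSMUSG00000026750), with trypsin-like activity, read 78.5, 72.0, 72.6, 72.9 and 70.5 CPM in light damage and 71.6, 62.6, 60.9, 68.9 and 55.0 CPM in controls. Control replicate 1 overlapped with light damage replicate 5. Its log2 fold change of 0.20 (95% interval 0.06 to 0.34) missed the threshold (edgeR adjusted p = 0.0609).

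Of the beta genes without a protease site, Psmb3 (ENSMUSG00000069744) rose. It read 70.0, 70.0, 74.9, 73.7 and 67.4 CPM in light damage and 59.4, 50.5, 59.5, 67.5 and 55.2 CPM in controls. Control replicate 4 just exceeded light damage replicate 5, and the other controls lay well below. The log2 fold change was 0.28 (SE 0.07, edgeR adjusted p = 0.0146). Psmb4 and Psmb1 each had a log2 fold change of 0.18 and Psmb2 one of 0.11, and none of the 3 was called. In each of these genes control replicate 1 or 4 reached or exceeded most light damage libraries.

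**Figure D2:**
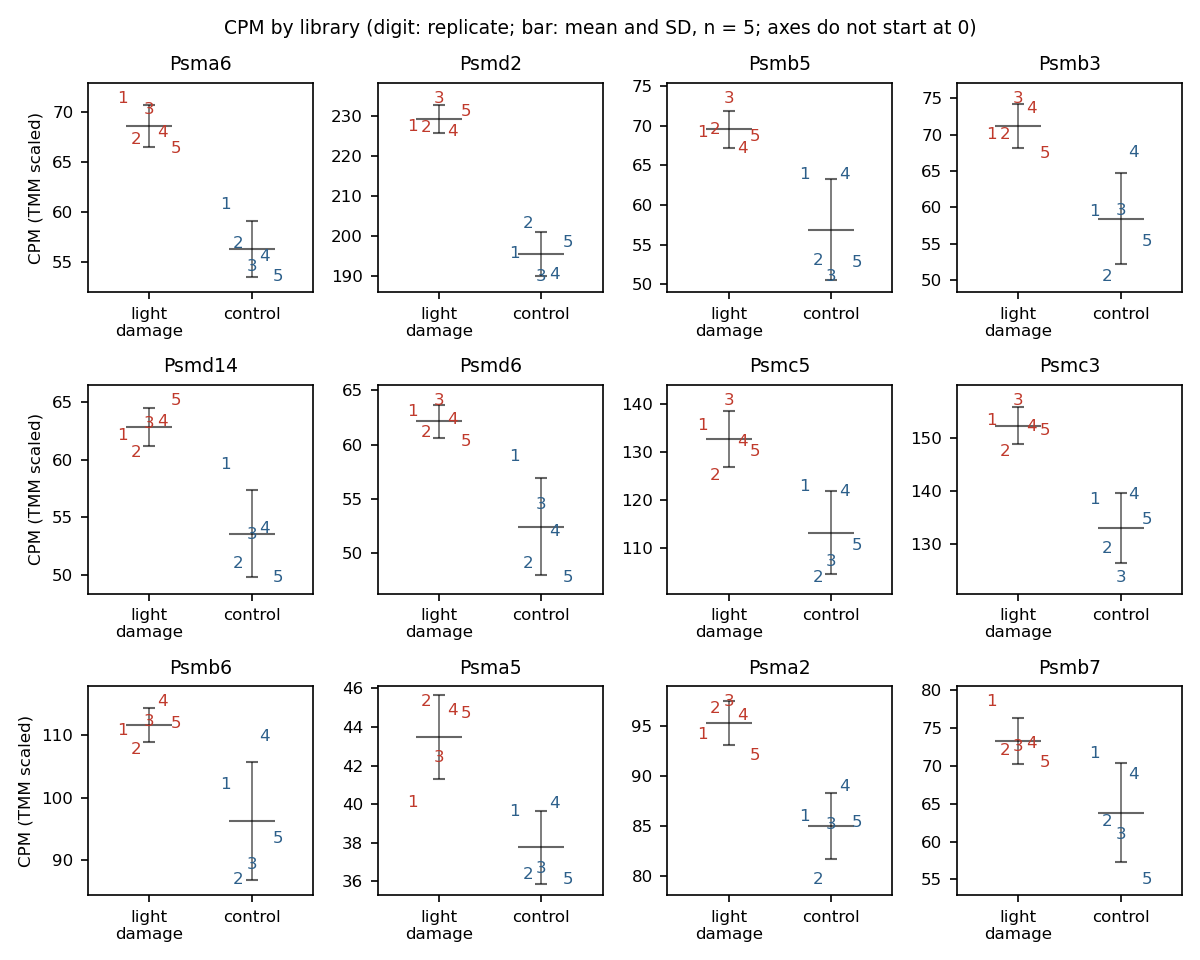
CPM of the 11 proteasome genes that rose and of Psmb7, with each library drawn as its replicate number and the bar giving mean and SD (n = 5); each axis has its own range and does not start at 0. Light damage libraries lie above all controls in 9 of the 12 panels, and Psmb3, Psmb6 and Psmb7 overlap.

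The base of the regulatory particle holds a ring of 6 ATPases, of which 2 rose. Psmc5 (ENSMUSG00000020708) read 135, 125, 141, 132 and 130 CPM in light damage and 123, 104, 107, 122 and 110 CPM in controls. The groups were separated, with control replicate 1 just under light damage replicate 2. Its log2 fold change was 0.23 (SE 0.06, edgeR adjusted p = 0.0207). Psmc3 (ENSMUSG00000002102) read 153, 147, 157, 152 and 151 CPM in light damage and 138, 129, 124, 139 and 135 CPM in controls. Again no control reached a light damage library. The log2 fold change of Psmc3 was 0.20 (SE 0.05, edgeR adjusted p = 0.0226).

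Psmc1, Psmc2 and Psmc4 had log2 fold changes of 0.17, 0.16 and 0.12 and were not called. Psmc6 (ENSMUSG00000021832) did not share this direction. It read 109, 99.1, 99.7, 109 and 100 CPM in light damage and 111, 113, 99.3, 108 and 98.1 CPM in controls. The groups overlapped fully, at a log2 fold change of -0.04 (95% interval -0.16 to 0.09). The ring holds the 6 proteins in equal number, and the difference between Psmc6 and the other ATPases was not tested.

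Psmd2 (ENSMUSG00000006998), the base subunit that docks ubiquitin receptors and shuttle factors, rose. It read 227, 227, 234, 226 and 231 CPM in light damage and 196, 203, 190, 190 and 198 CPM in controls. The gap between the groups exceeded the range within either. The means were 229 ± 3.43 and 195 ± 5.54 CPM (SD, n = 5 each), and they differed by 0.23 on the log2 scale (SE 0.05, edgeR adjusted p = 0.00818). Its scaffold partner Psmd1 had a log2 fold change of 0.15 and the ubiquitin receptor Psmd4 one of 0.14, and neither was called. Psmd4 overlapped widely, since control replicates 1 and 4 read 139 and 146 CPM and light damage replicate 2 read 135 CPM.

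In the lid 2 of 8 genes rose, with a median log2 fold change of 0.13. Psmd14 (ENSMUSG00000026914) encodes the metalloprotease that cuts ubiquitin chains from the substrate. It read 62.1, 60.7, 63.2, 63.3 and 65.2 CPM in light damage and 59.6, 51.0, 53.5, 54.0 and 49.8 CPM in controls. Control replicate 1 was the control closest to the light damage libraries, and no values overlapped. The log2 fold change was 0.23 (SE 0.06, edgeR adjusted p = 0.0172). Psmd6 (ENSMUSG00000021737), a structural lid subunit, read 63.0, 61.1, 64.1, 62.3 and 60.3 CPM in light damage and 58.9, 49.1, 54.5, 52.0 and 47.8 CPM in controls. Here too control replicate 1 was the highest control and the groups were separate. Its log2 fold change was 0.24 (SE 0.06, edgeR adjusted p = 0.0176).

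Among the lid genes that were not called, Psmd12 was the one without overlap, with light damage at 65.6 to 68.8 CPM and controls at 57.4 to 65.4 CPM (log2 fold change 0.15, edgeR adjusted p = 0.0642). Psmd7, the inactive partner of Psmd14, had a log2 fold change of 0.15. Psmd13, Psmd8 and Psmd3 lay at 0.11, 0.11 and 0.06. Psmd11 (ENSMUSG00000017428), a lid subunit that also contacts the core, had the most negative estimate of the 34 genes. It read 59.8, 56.8, 56.6, 60.9 and 67.0 CPM in light damage and 70.6, 57.6, 60.4, 65.1 and 58.5 CPM in controls. The groups overlapped, with a log2 fold change of -0.05 (95% interval -0.20 to 0.09).

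None of the 3 base chaperones with Psmd symbols was called by edgeR, DESeq2 or limma-voom, and 1 had an unadjusted p under 0.05. That gene was Psmd10, which encodes gankyrin, with a mean of 14.5 ± 0.872 CPM in light damage and 12.3 ± 1.36 CPM in controls (SD, n = 5 each; log2 fold change 0.23, edgeR adjusted p = 0.107). Psmd9 and Psmd5 had log2 fold changes of 0.09 and 0.05, and their intervals included 0. These chaperones leave the particle before it is complete.

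Levels can be compared between genes only per length, and the length used was that of the longest protein-coding transcript in GENCODE M21. In controls Psmb6 was highest at 121 CPM per kilobase (range 109 to 137), followed by Psmb4 at 90.8, Psmc5 at 86.0, Psmc1 at 78.0 and Psmb3 at 76.3 CPM per kilobase. The range of Psmb6 lay above that of Psmb4 (81.6 to 104 CPM per kilobase), and most later neighbours in the order overlapped. The last 3 places went to the base chaperones Psmd5, Psmd9 and Psmd10, at 14.3, 11.8 and 8.63 CPM per kilobase. The subunit with the lowest level was Psmd11, at 21.9 CPM per kilobase. These levels depend on which transcript the retina uses, which was not measured.

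**Figure D3:**
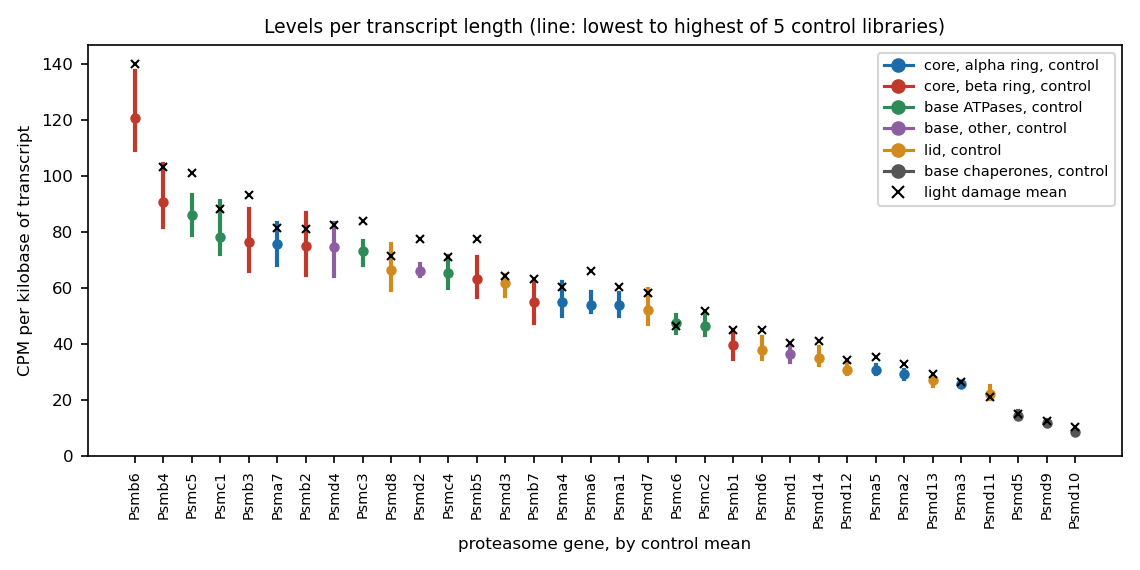
CPM per kilobase of transcript for each proteasome gene, ordered by the control mean; coloured points and lines give the mean and range of 5 control libraries and black crosses the light damage mean. Psmb6 stands first at 121 and Psmd10 last at 8.63 CPM per kilobase in controls.

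Within a library the genes tended to stand high or low together. The 34 genes held 0.308% to 0.330% of all counts in light damage libraries and 0.266% to 0.293% in controls. Their summed level was 3155, 3059, 3177, 3181 and 3129 CPM in light damage replicates 1 to 5 and 3048, 2673, 2712, 2965 and 2694 CPM in control replicates 1 to 5. Neither measure overlapped between groups, but control replicates 1 and 4 stood near the light damage libraries. The SD of the sum was 50.2 CPM in light damage and 175 CPM in controls (n = 5 each). By part, the sums of the alpha ring, the beta ring and the other base subunits did not overlap between groups. Those of the base ATPases, the lid and the base chaperones did. The lid sum was 694 CPM in control replicate 1 and at most 689 CPM in light damage. Counting the genes that lay above their own median over the 10 libraries gave 29, 19, 28, 34 and 26 of 34 in light damage replicates 1 to 5. The same count was 18, 2, 1, 12 and 1 in control replicates 1 to 5. Of the 34 genes, 28 had their highest value in a light damage library, and the share over all genes was not computed. Control replicates 2, 3 and 5 held the lowest value of 15, 5 and 13 genes. The libraries' trends with GC content and transcript length, given below, were also lowest in control replicates 2, 3 and 5. Their part in this pattern was not tested.

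**Figure D4:**
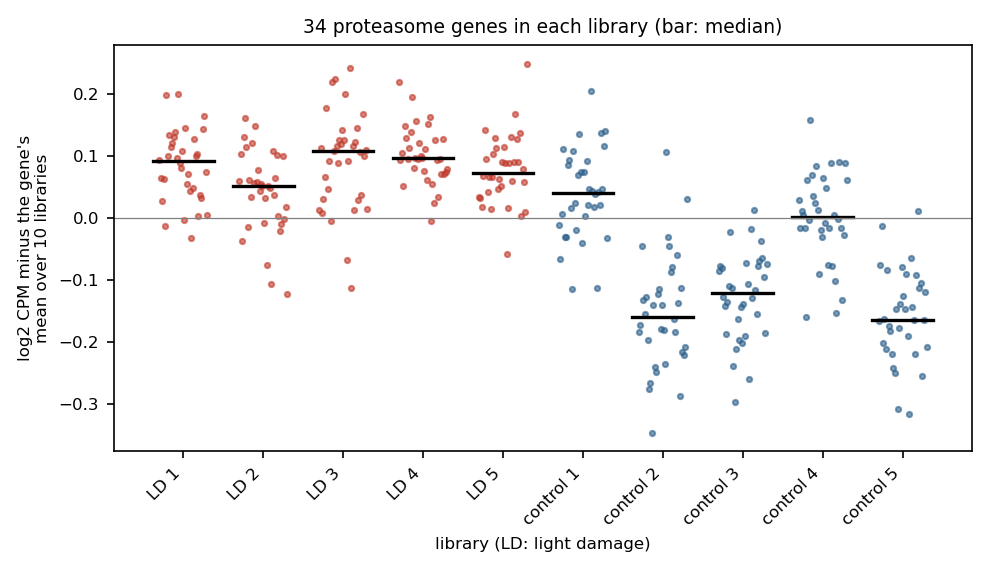
Log2 CPM of each of the 34 proteasome genes minus its mean over the 10 libraries, by library (LD: light damage), with a bar at the median. Medians lie between 0.05 and 0.11 in light damage libraries, at 0.04 and 0.00 in control replicates 1 and 4, and between -0.16 and -0.12 in the other controls.

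The number of called genes moved with single libraries, while their median difference moved little. Over the 10 fits that each left out 1 library, 6 of the 11 genes kept their call in all (Psma6, Psmb3, Psmb5, Psmd2, Psmd6 and Psmd14). Psmc3 and Psmc5 each lost it without light damage replicate 1 (edgeR adjusted p = 0.0594 and 0.0569) or 3 (edgeR adjusted p = 0.0606 and 0.0567). Psma2 lost it in 7 fits, all but those without light damage replicate 5, control replicate 1 or control replicate 4, at edgeR adjusted p from 0.0596 to 0.0914. Psma5 lost it in 7, all but those without light damage replicate 1, control replicate 1 or control replicate 4 (edgeR adjusted p from 0.0613 to 0.0952). Psmb6 lost it in 8, all but those without control replicate 1 or control replicate 4 (edgeR adjusted p from 0.0534 to 0.0780). Leaving out light damage replicate 1 left 7 genes called (against 2.58% of all genes), leaving out light damage replicate 3 left 6 (against 2.34%), and leaving out control replicate 1 gave 21 (against 7.91%). In these fits the share of all genes called moved the same way as the count of proteasome genes. With all libraries the count was 11 and the share 5.32%. The 2 moved in opposite directions without light damage replicate 5 (9 genes, against 5.78%) and without control replicate 4 (14 genes, against 4.79%). The median log2 fold change stayed between 0.14 and 0.20 over the 10 fits. Light damage replicates 1 and 2 carry both the lens RNA and the high Xist counts. Without these 2 libraries, 1 gene was called (Psma6, edgeR adjusted p = 0.0481, against 0.782% of all genes). The differences were as large there, with a median of 0.17 and log2 fold changes of 0.30 for Psmb3 and 0.29 for Psmb5. DESeq2 called 18 of the 34 genes (against 7.77% of all genes), and edgeR with library totals in place of TMM factors called 19 (against 6.81%). All of the 11 genes were among those called in both.

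Fold change went with transcript length. Across the 34 genes the Spearman correlation of the log2 fold change with the length of the longest protein-coding transcript was -0.54, and across all genes tested it was -0.14. These values are across genes, which share libraries and are not independent, so they are given as a description. Proteasome transcripts were short, with a median of 1586 bases against 2956 bases over all genes tested. With GC content the correlation was 0.09 across the 34 genes. When each library's trends with length and GC content were removed, 11 genes were called (against 6.42% of all genes), 10 of them the same, and the median log2 fold change was 0.13. Psma5 was lost there (edgeR adjusted p = 0.0611) and Psmd1 was gained (edgeR adjusted p = 0.0339). Averaged over the 34 genes, the trends were 0.006 to 0.047 on the log2 scale in light damage libraries. They were 0.030 and 0.035 in control replicates 1 and 4, and -0.061, -0.032 and -0.053 in control replicates 2, 3 and 5.

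**Figure D5:**
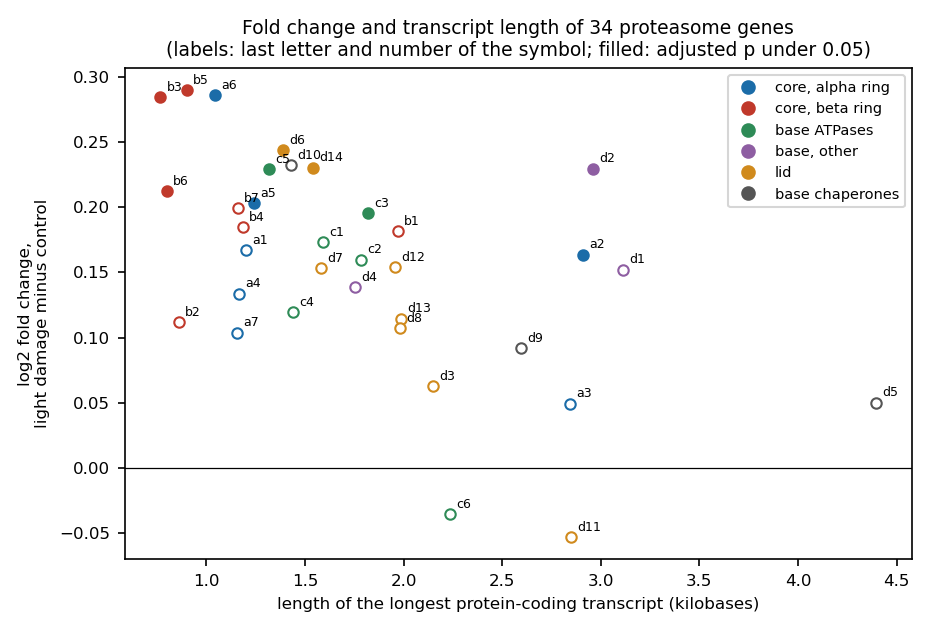
Log2 fold change (light damage minus control) of the 34 proteasome genes against the length of the longest protein-coding transcript in kilobases, coloured by part of the particle and filled where the adjusted p was under 0.05. Short transcripts lie higher on average (Spearman -0.54), and Psmd2, at 0.23, lies above genes of similar length.

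Other genes of the pathway were taken from lists of 52 genes, of which 51 were tested; 4 rose (7.84%, against 5.32% of all genes) and 2 fell (3.92%, against 7.85%), and the median log2 fold change was 0.08. These shares lie near those of all genes. Among the 8 genes of the immunoproteasome and the alternative regulators, 1 rose. Psme1 (ENSMUSG00000022216), a subunit of the PA28 activator that opens the core's gate, read 36.8, 38.3, 52.4, 35.3 and 34.9 CPM in light damage and 27.9, 30.0, 32.8, 28.2 and 27.8 CPM in controls. Light damage lay above control, with replicate 3 far above its group. The log2 fold change was 0.43 (SE 0.10, edgeR adjusted p = 0.0143). The exchange subunits Psmb8, Psmb9 and Psmb10 had log2 fold changes of 0.84, 0.71 and 0.48, with edgeR adjusted p of 0.243, 0.232 and 0.108, and they overlapped between groups. Per length their control levels were 1.84, 1.22 and 7.44 CPM per kilobase, against 63.3, 121 and 55.0 CPM per kilobase for Psmb5, Psmb6 and Psmb7. Psme2, the partner of Psme1, had a log2 fold change of 0.19 (95% interval -0.05 to 0.43).

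Of the 7 tested core assembly chaperones and related factors, 1 rose (14.3%, against 5.32% of all genes tested). The gene was Pomp (ENSMUSG00000029649), the maturation factor that is degraded as the core is completed. It read 55.3 to 60.5 CPM in light damage and 42.7 to 55.5 CPM in controls, with control replicate 1 just inside the light damage range (log2 fold change 0.28, SE 0.07, edgeR adjusted p = 0.0155). Psmg4 had a log2 fold change of 0.35 and was not called (edgeR adjusted p = 0.0550). In the list of 6 subunits with other symbols and proteasome-bound enzymes, 1 rose (16.7%, against 5.32%). That gene was Sem1 (ENSMUSG00000042541), the small lid subunit. It read 22.6, 27.6, 26.1, 30.1 and 23.1 CPM in light damage and 20.6, 17.6, 19.9, 21.2 and 18.8 CPM in controls. No libraries overlapped, and the log2 fold change was 0.40 (SE 0.09, edgeR adjusted p = 0.00888). With TMM scaling alone, the receptor Adrm1 and the deubiquitinases Usp14 and Uchl5 were not called, at log2 fold changes of 0.05, 0.14 and -0.03.

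Of the 10 genes of the NRF1 control list, 0 rose (against 5.32% of all genes tested) and 2 fell (20%, against 7.85%). The list was not tested as a set. At an unadjusted p under 0.05, 1 gene was higher, and none was called higher by DESeq2 or limma-voom. For Nfe2l1 itself the means were 243 ± 8.44 and 233 ± 9.69 CPM in light damage and control (SD, n = 5 each; log2 fold change 0.06, edgeR adjusted p = 0.502). Ddi2 (ENSMUSG00000078515), the protease that cleaves and activates NRF1, read 64.3 to 73.4 CPM in light damage and 75.5 to 89.9 CPM in controls. It fell by 0.22 on the log2 scale (SE 0.06, edgeR adjusted p = 0.0272). Mafg (ENSMUSG00000051510), a small Maf protein that pairs with NRF factors on DNA, fell by 0.36 (SE 0.09, edgeR adjusted p = 0.0210), at 76.1 to 104 CPM in light damage and 95.9 to 134 CPM in controls. With library totals in place of TMM factors neither was called (edgeR adjusted p = 0.0839 for Ddi2 and 0.0587 for Mafg). The protein activity of NRF1 was not measured.

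Of 12 genes of the segregase p97 and of shuttle factors, 1 rose (8.33%, against 5.32% of all genes tested). These factors extract ubiquitin-tagged proteins and bring them to the proteasome. The gene that rose was Nsfl1c (ENSMUSG00000027455), a p97 cofactor. It read 107 to 118 CPM in light damage and 90.6 to 102 CPM in controls (log2 fold change 0.20, SE 0.05, edgeR adjusted p = 0.0244). Vcp, which encodes p97, had a log2 fold change of 0.13 and was not called (edgeR adjusted p = 0.119). By edgeR, 5.32% of all genes tested rose and 7.85% fell. Among the 8 ubiquitin genes, activating enzymes and ubiquitin hydrolases, edgeR, DESeq2 and limma-voom called none in either direction. The lowest p there was that of the hydrolase Uchl3 (log2 fold change 0.23, edgeR adjusted p = 0.0888), the 1 gene of this list with an unadjusted p under 0.05. The polyubiquitin gene Ubb had a log2 fold change of 0.15 and was not called (edgeR adjusted p = 0.229). With GC and length trends removed, 2 calls of these lists were lost and 4 were gained. Psme1 was lost at a log2 fold change of 0.36 (edgeR adjusted p = 0.0614), and Ddi2 at -0.10, a smaller difference than with TMM alone (edgeR adjusted p = 0.147). Usp14, Ube3c and Txnl1 were gained as higher, at log2 fold changes of 0.20, 0.16 and 0.23 (edgeR adjusted p = 0.0288, 0.0479 and 0.0457), and the shuttle factor Ubqln4 as lower, at -0.14 (edgeR adjusted p = 0.0280). Without light damage replicates 1 and 2, Sem1 kept its call (edgeR adjusted p = 0.0421) and Psme1, Pomp, Ddi2, Mafg and Nsfl1c did not. Their log2 fold changes there were 0.48, 0.28, -0.20, -0.32 and 0.23, about as large as with all libraries. When 1 library was left out, Psme1, Pomp and Sem1 were called in all 10 fits. Mafg lost its call without light damage replicate 1 or 3 (edgeR adjusted p = 0.0527 and 0.0567), and Nsfl1c without light damage replicate 2, 3 or 4 (edgeR adjusted p from 0.0534 to 0.0581). Ddi2 lost its call without light damage replicate 1 or 4 or control replicate 2, 3 or 5 (edgeR adjusted p from 0.0518 to 0.0879).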

How the data were processed

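The measurements are RNA sequencing of total RNA from 10 mouse retina libraries, grouped by the sample titles. The authors deposited whole-number counts per gene, and counts were used as deposited. Per the submitters' processing notes, GRCm39, Bowtie2, DESeq2 1.4.5 and RSEM 1.3.1 were used, with no role given. The sources used here do not say whether counts are rounded estimates, whether libraries mark strand, or how reads shared with processed pseudogenes were divided, so genes with near-identical copies or antisense partners are uncertain. The table's one proteasome pseudogene with a matching name, Psmb7-ps2, had at most 4 counts.

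Symbols, transcript length and GC content came from GENCODE M21 (GRCm38), with 19892 identifiers matched. Promoters came from RefSeq (GRCm38.p6), and no coordinate was converted. In R 4.3.3, genes were kept by edgeR's filterByExpr (edgeR 4.0.16; 16852 genes, at least 99.804% of each library's counts). The groups were compared with the quasi-likelihood test, robust dispersion, TMM scaling and Benjamini-Hochberg adjustment over those genes. The SE was derived from the F statistic. An exact permutation test of 5 against 5 cannot give a two-sided p under 0.00794. Alternatives used DESeq2 1.42.0, limma-voom (limma 3.58.1), other scalings and filters, the replicate block, lowess removal of GC and length trends (span 0.3), and leaving out libraries. The steps were tested on simulated data, with a limit on recovery set only for changes larger than those of the proteasome genes. Of 45 pairs of libraries, 0 held identical values, and chi-square per degree of freedom was at least 5.77, so each counts once.

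Every proteasome gene is named. Values per library are given for called genes, the catalytic subunits and the largest negative estimate, with Psmc6 added after its values were seen. Other pathway genes are named if called or of lowest p in their list, and Psme2, Psmb8, Psmb9, Psmb10, Psmg4, Adrm1, Usp14, Uchl5, Nfe2l1, Vcp, Ubb, Ube3c, Txnl1, Ubqln4, Rpe65 and Rlbp1 were added after seeing values. Paaf1 was not analysed here. The genes and lists were chosen with earlier results of these data known. Figures used Python 3.11.15 and matplotlib 3.10.9.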

Additional observations from a re-analysis of the deposited data

Results flagged for a closer look

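Groups of 5 libraries were searched for a library far from its group, by the gap to its nearest neighbour as a share of the group's range, with a limit of 0.71. Of 102 groups searched 2 passed, and chance passes about 1 in 20. Psme1 read 52.4 CPM in light damage replicate 3, and the next light damage library read 38.3 CPM. The summed level of the 8 lid genes was 664 CPM in light damage replicate 2, below the other light damage libraries at 682 CPM or more.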

How the results depend on the processing

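No gene of the 34 was called lower in any fit, and the median log2 fold change lay between 0.13 and 0.19 over the 11 alternatives that did not leave out 1 library alone. The number of genes called higher, 11 with edgeR and TMM, was 18 with DESeq2, 19 with library totals alone, 19 with the replicate block and 1 without light damage replicates 1 and 2, and between 6 and 21 when 1 library was left out. Over all genes, 896 rose and 1323 fell. With library totals alone these were 1147 and 912, and with the replicate block 1431 and 1854. Without light damage replicates 1 and 2 they were 135 and 268. Leaving out 1 library gave 399 to 1347 higher and 723 to 1644 lower.

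The deviations of same-numbered libraries correlated at 0.0714, 0.0621, 0.316, 0.0522 and 0.0602 for replicates 1 to 5, all above 0. Of the 5 light damage libraries, 2 (replicates 3 and 4) correlated best with the control of their own number. The numbers were therefore not taken to pair the samples. The replicate block, which gave more calls, is given as an alternative only. Genes that were not called may still differ.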
